A study of Homo sapiens with 3 samples.

Results

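Chemokines are small secreted proteins that steer leukocytes by binding receptors on their surface, and interleukin 6 (IL6) is a cytokine that signals through gp130 and STAT3. The 10 genes examined here were CCL5, CXCL10, CXCL11, CXCL1, CXCL2, CXCL3, CXCL8, CCL2, CCL20 and IL6, measured in UM-UC-3 cells transfected with WDR5 siRNA or control siRNA. Every probe set whose only gene symbol was one of these names was taken, which gave 20 of 45064 such probe sets on the array and 10 of 18155 genes. The set was selected on measured values of these same arrays, namely the difference between the WDR5 siRNAs at CCL5, CXCL10, CXCL2 and CXCL3. All values are therefore a description, and no test was made on them.

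UM-UC-3 is an established human bladder cancer line, and WDR5 is a core subunit of the MLL/SET1 complexes that methylate lysine 4 of histone H3. The cells received si-WDR5-2, si-WDR5-3 or control siRNA at 75 nM, each delivered with the same lipid reagent, and RNA was taken at 48 h. RNA of a condition went onto a single Affymetrix PrimeView array, which gave 3 arrays in all and no replicate. A difference between conditions therefore could not be set against a spread between cultures, and an effect of losing WDR5 cannot be told apart from any other effect of a given siRNA. The labels place the target of si-WDR5-2 at position 999 and that of si-WDR5-3 at position 585 of the WDR5 coding sequence. They also list a WDR5 level relative to control of 0.06 for si-WDR5-2 and 0.14 for si-WDR5-3. The siRNA sequences of the labels are shown because they define the samples, and the capitals mark the TT overhang at the 3′ end.
si-WDR5-2: gcucagaggauaaccuuguTT
si-WDR5-3: cccaguccaaccuuauuguTT
control siRNA: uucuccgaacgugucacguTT

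WDR5 mRNA, the target, was at 0.215 times the control for si-WDR5-2 and at 0.317 times it for si-WDR5-3 over 2 probe sets. The median intensity was 149.9 on the si-WDR5-2 array, 151 on the si-WDR5-3 array and 151 on the control array. A filter kept probe sets whose geometric mean intensity over the arrays reached 152, so that the dimmer part of the array was set aside. Ratios of a gene were summarised by their median across the probe sets that passed. The range across those probe sets is given as the error, which measures probes and not cells. This spread had a median SD of 0.08 on the log2 scale for si-WDR5-2 and 0.07 for si-WDR5-3, each against control siRNA. KRT18, an epithelial keratin, gave 1217 on the si-WDR5-2 array, 1858 on the si-WDR5-3 array and 1708 on the control array. The mesenchymal filament gene VIM gave 7892, 9174 and 10039 on them. Of 7 measured fibroblast or mesenchymal markers 3 were past the filter. Beside VIM these were COL1A1, between 172 and 182, and PDGFRB, between 204 and 211, both far dimmer. The summed intensity of all 7 was 8465, 9761 and 10619 on the same arrays, of which VIM made up the greatest share. Of 13 measured urothelial and epithelial markers 7 were past the filter. The summed intensity of all 13 was 2886 with si-WDR5-2, 3553 with si-WDR5-3 and 3363 with control siRNA, of which KRT18 made up the greatest share. The uroplakin gene UPK3A, which marks differentiated urothelium, lay near the filter level, with 159.6 on the si-WDR5-2 array, 165 on the si-WDR5-3 array and 169 on the control array. Of 10 measured leukocyte markers, the genes that could betray blood cells in a culture, 4 were past the filter. CD68, a lysosomal protein gene that tumour cells also express, was the only one of the 4 past 1.5 times, with an intensity of 561 with si-WDR5-2, 306 with si-WDR5-3 and 337 with control siRNA. The summed intensity of the leukocyte list was 1447 with si-WDR5-2, 1204 with si-WDR5-3 and 1247 with control siRNA, and its part in the results was not tested.

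Inflammatory chemokine genes are switched on by transcription factors that bind close to the start site. NF-kappaB drives most of them, interferon-regulated factors add to it at CXCL10 and related genes, and AP-1 does so at CXCL8. The promoter windows of RefSeq (GRCh38.p14), from 250 bases before to 50 bases after the start site, matched 8 of 10 genes. CCL5 and CCL2 had no entry. The 5 windows printed here all lie on chromosome 4. They are given because CXCL10 and CXCL11 moved together and because CXCL1, CXCL2 and CXCL3 are close copies of each other. Capitals mark matches to 3 motifs, each searched on both strands. The kappaB-like motif was GGGA and TTCC with any 2 bases between them. The ISRE-like motif, after the interferon-stimulated response element, was GAAA and GAAA with any 2 bases between them. The AP-1-like motif was TGA and TCA with any 1 base between them.
CXCL10, chr4:76023448-76023747 (- strand): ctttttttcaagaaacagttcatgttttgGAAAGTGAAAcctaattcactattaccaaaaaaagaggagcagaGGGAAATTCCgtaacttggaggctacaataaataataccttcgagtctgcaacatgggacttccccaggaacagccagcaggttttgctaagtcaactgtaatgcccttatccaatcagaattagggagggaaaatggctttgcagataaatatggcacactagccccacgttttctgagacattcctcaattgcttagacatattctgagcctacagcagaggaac
CXCL11, chr4:76036021-76036320 (- strand): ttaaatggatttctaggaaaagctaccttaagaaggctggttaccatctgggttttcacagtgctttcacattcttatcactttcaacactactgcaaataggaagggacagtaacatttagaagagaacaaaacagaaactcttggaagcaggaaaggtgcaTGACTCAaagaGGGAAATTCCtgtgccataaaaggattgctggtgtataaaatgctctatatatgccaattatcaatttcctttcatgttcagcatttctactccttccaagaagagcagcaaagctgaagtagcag
CXCL1, chr4:73869143-73869442 (+ strand): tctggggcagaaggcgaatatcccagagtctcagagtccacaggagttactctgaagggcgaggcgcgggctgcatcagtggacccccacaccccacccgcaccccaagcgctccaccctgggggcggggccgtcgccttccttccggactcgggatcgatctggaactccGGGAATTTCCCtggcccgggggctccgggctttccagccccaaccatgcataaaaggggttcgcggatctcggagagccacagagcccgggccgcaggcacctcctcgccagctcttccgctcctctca
CXCL2, chr4:74099146-74099445 (- strand): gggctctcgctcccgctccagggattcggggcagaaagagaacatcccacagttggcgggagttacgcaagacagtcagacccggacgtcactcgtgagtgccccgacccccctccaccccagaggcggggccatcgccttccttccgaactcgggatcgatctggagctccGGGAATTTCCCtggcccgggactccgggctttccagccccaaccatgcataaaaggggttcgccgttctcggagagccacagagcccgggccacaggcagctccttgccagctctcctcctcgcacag
CXCL3, chr4:74038640-74038939 (- strand): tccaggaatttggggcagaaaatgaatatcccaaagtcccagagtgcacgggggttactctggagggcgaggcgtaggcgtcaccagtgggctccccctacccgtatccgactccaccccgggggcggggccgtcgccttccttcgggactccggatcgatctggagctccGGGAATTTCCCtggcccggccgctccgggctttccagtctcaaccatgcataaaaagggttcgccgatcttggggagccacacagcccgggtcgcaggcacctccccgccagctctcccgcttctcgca

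The kappaB-like motif was found in 6 of 8 windows, those of CXCL10, CXCL11, CXCL1, CXCL2, CXCL3 and IL6, against 1.61% of 35116 windows of all genes. In CXCL1, CXCL2 and CXCL3 the matches on both strands overlapped by all but 1 base. The ISRE-like motif was in the CXCL10 window alone among the 8, against 3.57% of all windows. The AP-1-like motif was in those of CXCL11 and CXCL8, against 7.71% of all windows. No match was found in the CCL20 window. The patterns allow no mismatch, so a window without a match can still hold a looser form of a site. Such forms were not searched. After global alignment the windows of CXCL1 and CXCL3 were identical at 82.5% of columns, those of CXCL2 and CXCL3 at 73.8% and those of CXCL1 and CXCL2 at 71.9%, whereas all other pairs of the 8 windows lay between 44.3% and 55.4%. The matches are a description of the letters and not of binding, which was not measured here.

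**Figure D1:**
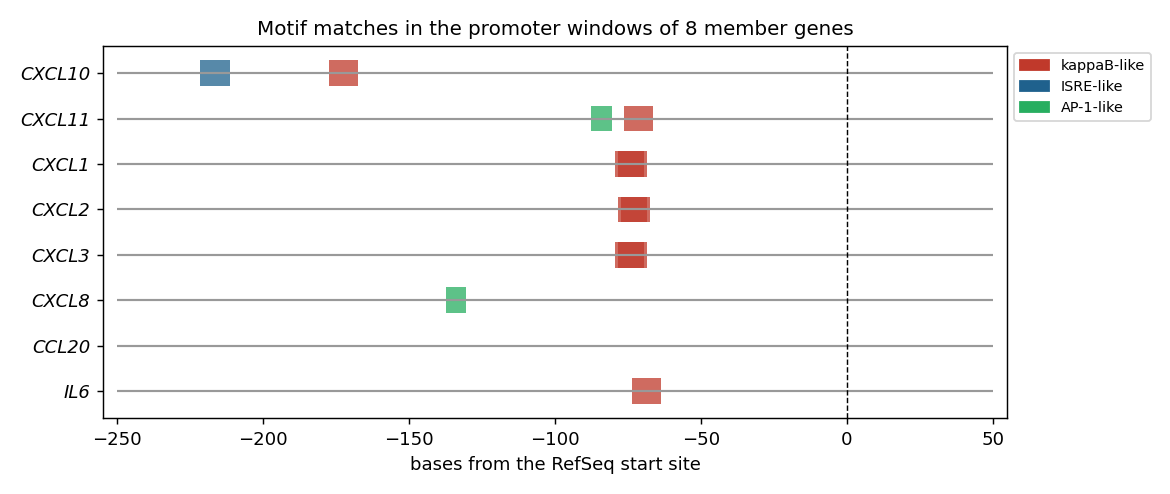
Position of each motif match (coloured boxes) in the promoter windows of the 8 genes with a RefSeq entry, in bases from the start site (dashed line), with 1 row per gene. The kappaB-like boxes of CXCL1, CXCL2 and CXCL3 sit at nearly the same distance, starting 79, 78 and 79 bases before the start site, and darker parts mark matches on both strands.

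CCL5, a chemokine that recruits T cells and monocytes, was far higher with si-WDR5-2 than on the other arrays. Its first probe set had an intensity of 4062 with si-WDR5-2, 331 with si-WDR5-3 and 347 with control siRNA. The second gave 2810.2, 203 and 377 on these arrays, and the third gave 2417, 175 and 322. The si-WDR5-2 array was thus high at all 3 probe sets, while the si-WDR5-3 array was level with the control at the first and lower at the others. As the median over probe sets, CCL5 was at 7.51 times the control with si-WDR5-2 (range 7.46 to 11.7) and at 0.543 times with si-WDR5-3 (range 0.540 to 0.954). Among 11501 genes past the filter, only 6 had a higher ratio with si-WDR5-2.

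CXCL10 and CXCL11 encode ligands of CXCR3, the receptor of activated T cells and NK cells, and both are classic products of interferon-treated cells. The single CXCL10 probe set had 779.9 with si-WDR5-2, 90.1 with si-WDR5-3 and 98.1 with control siRNA. Only the si-WDR5-2 array was above the filter level, so CXCL10 passed the filter through the array where it was high. It was at 7.95 times the control for si-WDR5-2 and at 0.918 times it for si-WDR5-3.

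CXCL11 was below the filter with all 3 probe sets. One had 491 with si-WDR5-2, 55.5 with si-WDR5-3 and 61.7 with control siRNA, and another had 399, 55.6 and 60.4. The third had 62.5, 51.8 and 54.5, near the lowest intensity of the arrays. The ratios to control were 7.95, 6.61 and 1.15 times with si-WDR5-2 and 0.899, 0.920 and 0.949 times with si-WDR5-3. Thus 2 of 3 CXCL11 probe sets followed CXCL10, its neighbour on chromosome 4. CXCL9, the third CXCR3 ligand in the same run of genes, stayed dim, with 80.6 with si-WDR5-2, 84.5 with si-WDR5-3 and 86.1 with control siRNA.

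**Figure D2:**
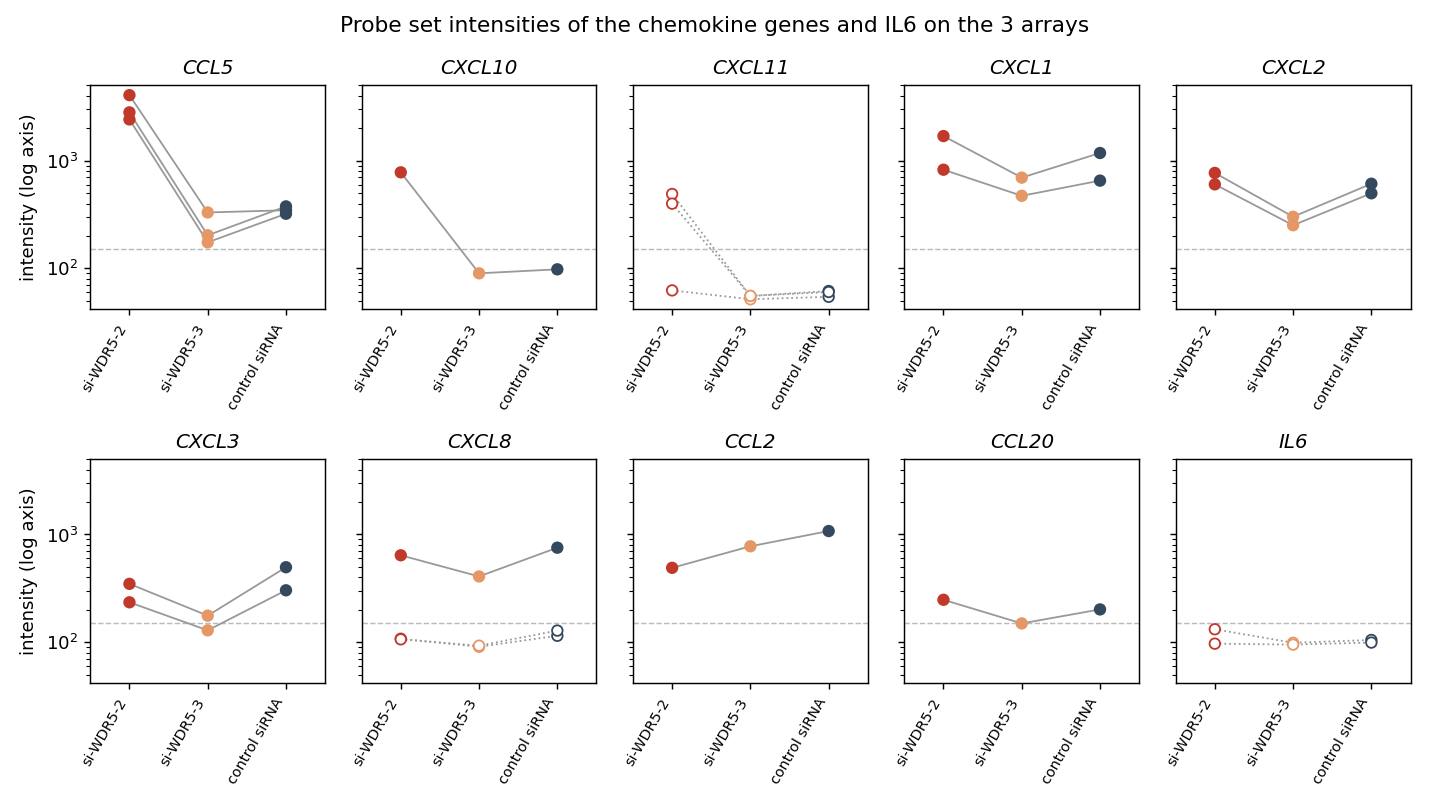
Intensity (log axis) of every probe set of the 10 genes on the si-WDR5-2, si-WDR5-3 and control siRNA arrays, with lines joining the values of 1 probe set. Filled points are probe sets past the filter, open points are below it and the dashed line is the filter level of 152. CCL5, CXCL10 and 2 probe sets of CXCL11 stand high on the si-WDR5-2 array alone.

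CXCL1, CXCL2, CXCL3 and CXCL8 encode chemokines with an ELR motif, which draw neutrophils through CXCR2. All 4 were lower than control with si-WDR5-3, and in each the si-WDR5-2 array was above the si-WDR5-3 array. CXCL1 had 1693 with si-WDR5-2, 697 with si-WDR5-3 and 1179 with control siRNA at one probe set, and 825, 472 and 653 at the other. The arrays kept the same order at both. CXCL1 was at 1.35 times the control with si-WDR5-2 (range 1.26 to 1.44) and at 0.653 times with si-WDR5-3 (range 0.591 to 0.723).

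CXCL2 had 603 with si-WDR5-2, 252 with si-WDR5-3 and 499 with control siRNA at one probe set, and 770.5, 302 and 611 at the other. It was at 1.23 times the control for si-WDR5-2 and at 0.499 times it for si-WDR5-3 (ranges 1.21 to 1.26 and 0.494 to 0.505), so its 2 probe sets lay close together. CXCL1 and CXCL2 also share a further probe set, left out of both genes, which had 553 with si-WDR5-2, 296 with si-WDR5-3 and 431 with control siRNA. Its order of arrays was that of CXCL1 and CXCL2. Because these genes are near copies, probes may take up more than 1 of their transcripts, and this was not tested.

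CXCL3 differed from its copies in lying below the control on both arrays. It had 348 with si-WDR5-2, 176 with si-WDR5-3 and 496 with control siRNA at one probe set, and 235, 129 and 303 at the other. The ratios were 0.736 times with si-WDR5-2 (range 0.701 to 0.774) and 0.388 times with si-WDR5-3 (range 0.355 to 0.425). With si-WDR5-3 only 11 of 11501 genes had a lower ratio.

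CXCL8, also known as interleukin 8, had 641 with si-WDR5-2, 408 with si-WDR5-3 and 754 with control siRNA at its bright probe set. Relative to control this was 0.850 times for si-WDR5-2 and 0.541 times for si-WDR5-3. Its other probe sets were below the filter, with 108, 90.7 and 115 and with 106, 92.8 and 128 on the same arrays. They kept the order of the arrays, but with si-WDR5-3 they lay closer to the control, at 0.791 and 0.724 times. Without the filter CXCL8 as a gene was at 0.724 times with si-WDR5-3.

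CCL2, which attracts monocytes through CCR2, was the one gene with its lowest value on the si-WDR5-2 array. It had 490.3 with si-WDR5-2, 777 with si-WDR5-3 and 1076 with control siRNA at 1 probe set. The ratios were 0.456 and 0.722 times the control, and 38 of 11501 genes had a lower ratio with si-WDR5-2. CCL20, the ligand of CCR6, had 248 with si-WDR5-2, 149 with si-WDR5-3 and 201 with control siRNA, again at 1 probe set. It was at 1.23 times the control for si-WDR5-2 and at 0.741 times it for si-WDR5-3, which is short of 1.5 times in either direction.

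IL6 was dim on every array. One probe set had 132 with si-WDR5-2, 98.8 with si-WDR5-3 and 105 with control siRNA, and the other had 96.9, 95 and 99.2. The ratios with si-WDR5-2 were 1.26 and 0.977 times the control, so the probe sets did not share a direction. Those with si-WDR5-3 were 0.943 and 0.958 times. Both lay below the filter.

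**Figure D3:**
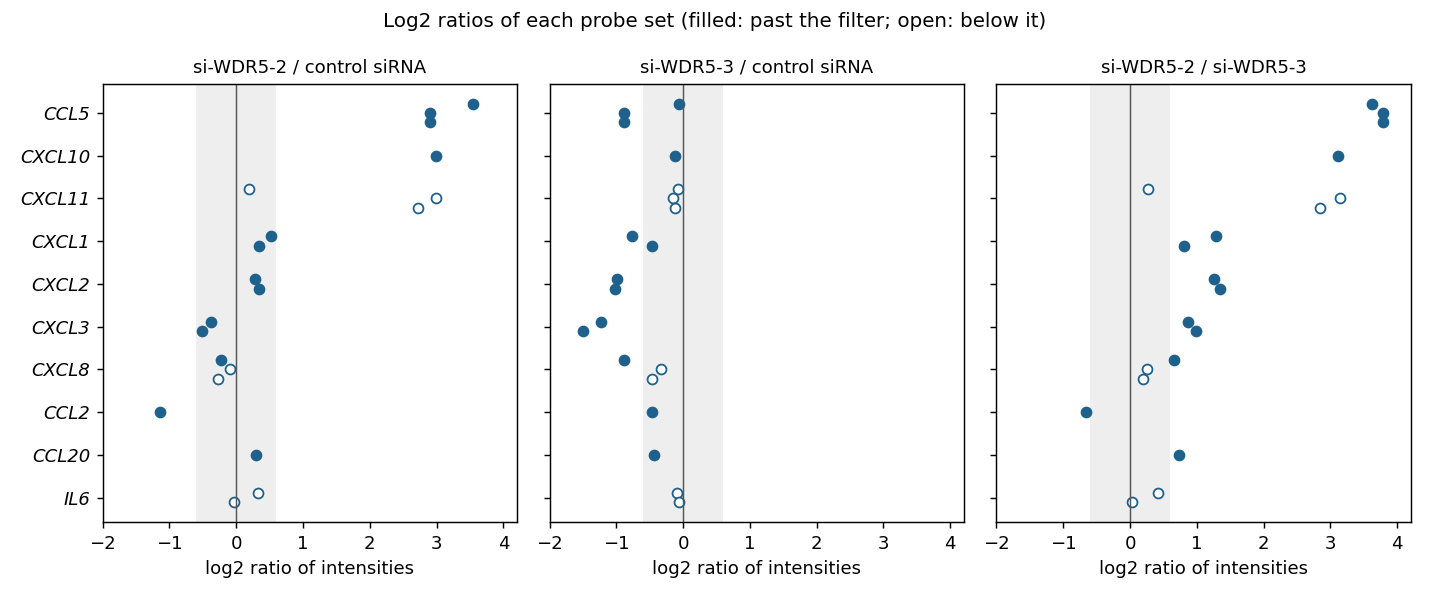
Log2 ratio of every probe set of the 10 genes for si-WDR5-2 over control siRNA, si-WDR5-3 over control siRNA and si-WDR5-2 over si-WDR5-3. Filled points are past the filter, open points are below it and the grey band spans 1.5 times in either direction. No probe set lies above 0 with si-WDR5-3, and in the last panel every probe set but that of CCL2 lies above 0.

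At a limit of 1.5 times, 2 of the 8 genes past the filter were higher with si-WDR5-2 than with control siRNA, CCL5 and CXCL10, where 5.00% of 11501 genes were. Both are genes on whose values the set was chosen, and CXCL10 passed the filter only through the si-WDR5-2 array. The count is therefore no support for a shared change. CCL2 alone was lower, where 3.35% of all genes were. With si-WDR5-3 none of the 8 was higher than with control siRNA, where 2.34% of all genes were. The 5 genes CCL5, CXCL1, CXCL2, CXCL3 and CXCL8 were lower, where 1.57% of all genes were. Of these, CCL5, CXCL2 and CXCL3 also belonged to the choice of the set. The gene just inside the limit was CXCL1 at 0.653 times, and just outside was CCL2 at 0.722 times. For CCL5 the count rests on 2 of 3 probe sets, since the brightest was at 0.954 times.

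The median log2 ratio of the 8 genes was 0.30 for si-WDR5-2 and -0.75 for si-WDR5-3, against -0.02 and -0.00092 over all genes past the filter. With si-WDR5-3 all 8 lay below the control, where 49.7% of all genes past the filter lay above it. Both genes under the filter lay below the control too, where 46.9% of 18155 genes without the filter lay above it. Among the 8, CCL5, CXCL10, CXCL2 and CXCL3 were chosen on their difference between the WDR5 siRNAs. CXCL10 also passed the filter only through the si-WDR5-2 array. The medians and these directions are therefore no support for a shared change. With si-WDR5-2 the 8 split, 5 above and 3 below, near the share over all genes past the filter, of which 45.6% lay above. Both comparisons share the control array, so a high or low value there would move both sets of ratios together. Without the filter, with all 10 genes, 3 were higher and 1 was lower with si-WDR5-2 than with control siRNA, where 2.53% and 1.56% of 18155 genes were. With si-WDR5-3 none was higher and 4 were lower, where 1.01% and 0.722% of all genes were.

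Set directly against each other, si-WDR5-2 was higher than si-WDR5-3 by at least 1.5 times at 7 of the 8 genes, where 3.53% of all genes were, a contrast used to choose the genes. CCL2 was lower, at 0.631 times, where 3.08% of all genes were that low. Without the filter the counts were 7 and 1 of 10 genes, with CXCL11 in and CXCL8 out, where 1.82% and 1.33% of all genes were. The ratio was 13.8 times for CCL5 and 8.66 times for CXCL10. For the ELR chemokines it was smaller, with 2.47 times for CXCL2, 2.06 for CXCL1, 1.90 for CXCL3 and 1.57 for CXCL8, and for CCL20 it was 1.66. The probe sets of CXCL1 ranged from 1.75 to 2.43 times, those of CXCL2 from 2.40 to 2.55 times and those of CXCL3 from 1.82 to 1.97 times. CXCL1 overlapped both of the others, whereas CXCL2 and CXCL3 did not overlap.

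The genes with the pattern closest to CCL5 and CXCL10, by Euclidean distance over both log2 ratios to control on these 3 arrays, were interferon-induced. For CCL5 they were CMPK2 (7.98 times for si-WDR5-2 and 0.597 times for si-WDR5-3, distance 0.16), OASL (7.47 and 0.612 times, distance 0.17) and IFIT2 (8.72 and 0.604 times, distance 0.27). For CXCL10 the closest was GBP1, an interferon-induced GTPase, at 9.14 and 0.902 times (distance 0.20), and then BST2 (distance 0.52) and OASL (distance 0.59). CXCL2 had other neighbours, namely the integrin gene ITGA5 at 1.25 and 0.513 times (distance 0.04), SNRK (distance 0.07) and CDC42SE2 (distance 0.20). Those of CXCL3 were NOTCH2 at 0.801 and 0.449 times (distance 0.24), B3GALNT2 (distance 0.24) and LSM10 (distance 0.27). With si-WDR5-3 the probe sets of NOTCH2 ranged from 0.295 to 0.682 times and those of CDC42SE2 from 0.389 to 0.764 times. The places of NOTCH2 and CDC42SE2 thus rest on probe sets that differ by more than the distances given.

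**Figure D4:**
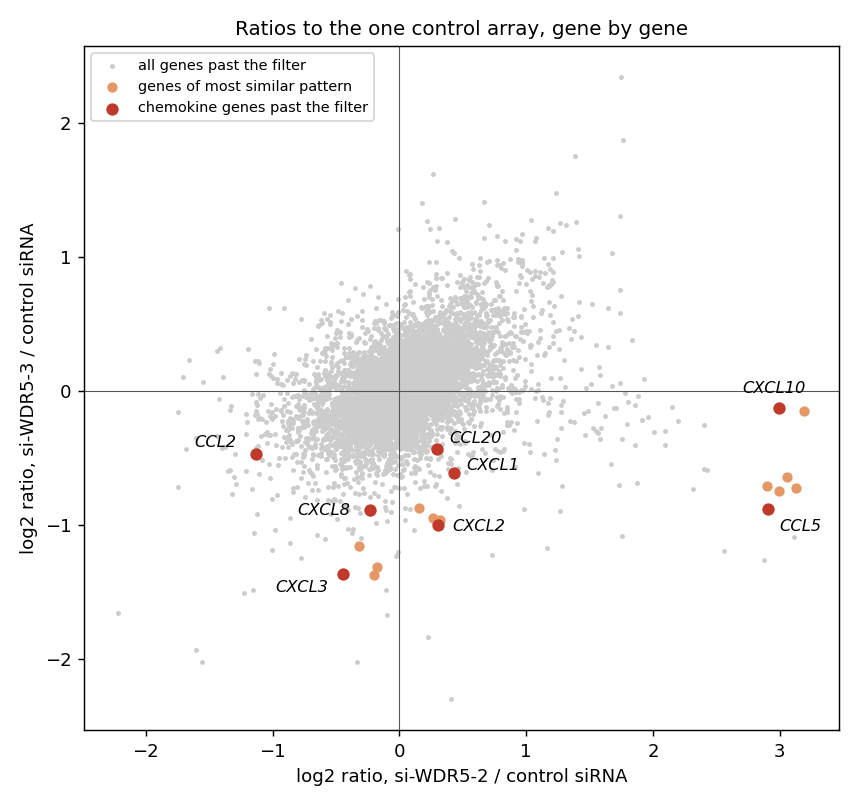
Log2 ratio to control siRNA with si-WDR5-2 (x axis) and with si-WDR5-3 (y axis) for 11501 genes past the filter (grey), the 8 chemokine genes (red) and the genes of most similar pattern (orange). Both axes use the same control array. CCL5 and CXCL10 lie apart at the right with interferon-induced genes, and the other chemokine genes lie below 0 on the y axis on either side of 0 on the x axis.

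No other chemokine gene past the filter was past 1.5 times in any comparison. Of 11 other CXC chemokine genes 3 were past the filter. Their ratios to control spanned 0.957 (PF4V1) to 1.03 for si-WDR5-2 and 0.994 to 1.03 for si-WDR5-3. Of 20 other CC, CX3C and XC chemokine genes with a probe set 5 were past it. Their ratios spanned 0.883 (CCL22) to 0.949 for si-WDR5-2 and 0.957 to 1.03 for si-WDR5-3. The run of genes on chromosome 4 from CXCL8 to CXCL2 holds CXCL6, PF4V1, PF4, PPBP and CXCL5 between the listed genes. Without the filter the ratios of CXCL5 were 1.02 for si-WDR5-2 and 1.03 for si-WDR5-3, and those of PPBP were 0.967 and 0.957. Both genes were dim, with intensities between 65.7 and 71.5. Among 21 chemokine receptor genes with a probe set 7 were past the filter, and none of them was past 1.5 times in any comparison. This too is close to the shares over all genes. CXCR5, a receptor of B cells, had the ratio furthest from 1, at 0.871 times for si-WDR5-2.

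Genes upstream of these chemokines were examined next. Of 12 genes of RNA sensing and interferon-regulated transcription past the filter, 5 were at least 1.5 times the control with si-WDR5-2 and none with si-WDR5-3, where IFIH1 and IRF1 were lower. Over all genes 5.00% were that much higher with si-WDR5-2 and 1.57% that much lower with si-WDR5-3. Without the filter no gene of the list was past 1.5 times with si-WDR5-3. RIGI, a cytoplasmic sensor of double-stranded RNA, was at 5.28 and 0.668 times the control, and IFIH1, a second such sensor, had 1071 with si-WDR5-2, 198 with si-WDR5-3 and 322 with control siRNA. IRF7, which induces interferon genes, was at 3.48 and 0.946 times, and IRF9, a partner of STAT proteins, at 1.89 and 0.899 times. EIF2AK2, the kinase PKR, was at 1.76 and 0.734 times. The list had a median log2 ratio of 0.44 for si-WDR5-2 and -0.12 for si-WDR5-3.

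Of 15 genes of NF-kappaB subunits, kinases and inhibitors, 1 was higher and 2 were lower with si-WDR5-2, and none was higher and 3 were lower with si-WDR5-3. The shares over all genes were 5.00% and 3.35% with si-WDR5-2 and 2.34% and 1.57% with si-WDR5-3. NFKBIZ, a nuclear cofactor of NF-kappaB needed for IL6 induction in mouse cells, had 656 with si-WDR5-2, 201 with si-WDR5-3 and 308 with control siRNA. NFKBIA, the inhibitor that is itself an NF-kappaB target, had 1481 with si-WDR5-2, 1027 with si-WDR5-3 and 2180.0 with control siRNA as the median of 3 probe sets. It was thus below the control on both arrays like CXCL3, CXCL8 and CCL2. The median of its probe set ratios with si-WDR5-2 was 0.666 times (range 0.665 to 0.680), so this call sits on the limit of 1.5 times. NFKBIE, a related inhibitor, was at 0.800 and 0.588 times the control. CHUK, a kinase of the pathway, had ratios of 0.629 for si-WDR5-2 and 0.975 for si-WDR5-3. The subunit genes RELA and NFKB1 did not pass 1.5 times in any comparison.

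**Figure D5:**
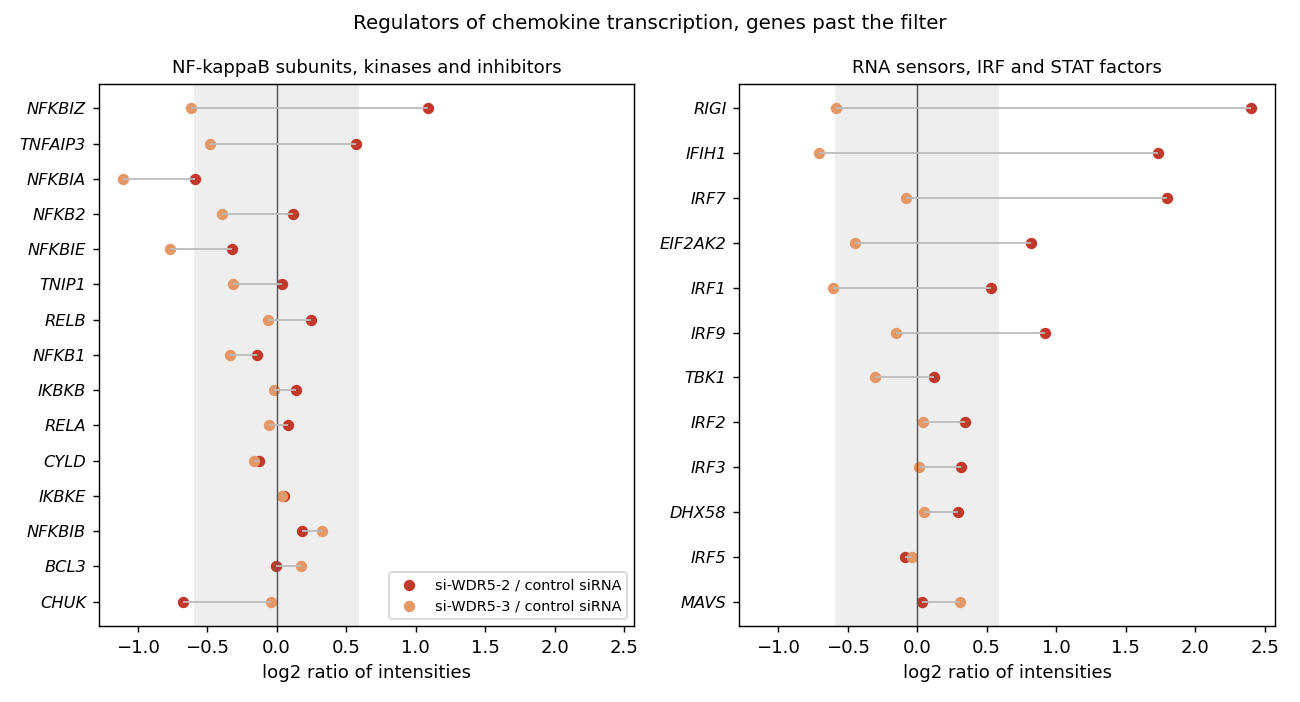
Log2 ratio to control siRNA of genes past the filter from the lists of NF-kappaB factors (left) and of RNA sensors, IRF and STAT factors (right), with si-WDR5-2 in red and si-WDR5-3 in orange. Grey lines join both values of a gene and the grey band spans 1.5 times in either direction. RIGI, IFIH1 and IRF7 lie furthest to the right with si-WDR5-2, and NFKBIA lies left of 0 with both siRNAs.

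Of 18 inducing cytokines, their receptors and signal carriers past the filter, 4 were at least 1.5 times the control with si-WDR5-2, where 5.00% of all genes were, and none was past 1.5 times with si-WDR5-3. The median of the list was 1.09 times with si-WDR5-2. The interleukin 1 receptor gene IL1R1 had 250.03 with si-WDR5-2, 145 with si-WDR5-3 and 107 with control siRNA. The ligand gene TNFSF10 (TRAIL) was at 1.92 and 0.962 times the control, IL18 at 1.62 and 1.23 times and the adaptor gene MYD88 at 1.505 and 0.904 times. Without the filter MYD88 was no longer past 1.5 times, but TLR3 and IFNB1, both below the filter, were. That made 5 of 26 genes higher with si-WDR5-2, where 2.53% of all genes were. IFNB1 had 213 with si-WDR5-2, 108 with si-WDR5-3 and 110 with control siRNA at 1 probe set. Its ratios were 1.94 and 0.989 times the control. In the list of the IL6 family, its receptors and JAK-STAT3, 1 of 13 genes past the filter was higher and 2 were lower with si-WDR5-2, while 2 were higher with si-WDR5-3, where 5.00%, 3.35% and 2.34% of all genes were. OSMR, the oncostatin M receptor, was higher with both, at 1.66 and 1.52 times. STAT3, which carries the IL6 signal, was at 0.881 times control for si-WDR5-2 but 1.54 times for si-WDR5-3. JAK1 was at 0.643 and 0.968 times and the feedback inhibitor SOCS3 at 0.656 and 0.752 times. Without the filter neither OSMR call and not that of SOCS3 held, while STAT3 stayed higher with si-WDR5-3. JAK1 stayed lower with si-WDR5-2 only barely, at 0.6666 times, which sits on the limit of 1.5 times.

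Of 10 AP-1 and C/EBP genes past the filter 1 was higher with si-WDR5-2, FOSL2 at 1.66 times (range 1.22 to 2.45), where 5.00% of all genes were, and it was at 1.08 times with si-WDR5-3. Without the filter FOSL2 was at 1.46 times and no gene of the list was past 1.5 times the control. CEBPB, a factor of the IL6 and CXCL8 promoters, had 2864 with si-WDR5-2, 1519 with si-WDR5-3 and 2158 with control siRNA, the order of arrays seen for CXCL1 and CXCL2. Chemokine mRNAs carry AU-rich elements that speed their decay. Of 10 genes in a list tied to the decay and stability of such mRNAs none was higher and 2 were lower with si-WDR5-2, where 3.35% of all genes were. These were the decay factor ZFP36L2 at 0.461 times and the stabilising protein ELAVL1 (HuR) at 0.466 times (range 0.394 to 0.709). Without the filter ZFP36L2 alone was lower. With si-WDR5-3 these were at 0.753 and 0.965 times, and none of the 10 was past 1.5 times.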

How the data were processed

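Total RNA of UM-UC-3 cells was hybridised to 3 Affymetrix PrimeView arrays, 1 per condition. The authors deposited linear probe set intensities made with GCOS 1.4, per the methods and the submitters' processing notes. How the scans were background corrected, summarised and scaled is not given in the sources used here. No detection calls stand beside the values used. Array medians were close, so no scaling was applied. Log2 was taken without an offset, and a probe set was kept if its mean log2 over the arrays reached the median of such means. Gene names follow the platform annotation, in which 45064 probe sets have 1 symbol, 1756 several and 2473 none.

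A gene is the median over its kept probe sets, and the limit was 1.5 times in either direction. No p-value is given, since no condition has replicates and the number of arrays limits the precision. Windows were aligned with Biopython 1.88 (match 1, mismatch -1, gap opening -2, gap extension -0.5). The members, the 12 further gene lists and the alternatives were chosen with earlier results of these data known. The genes named are all members, up to 4 genes past 1.5 times in each list, ranked by their ratio to control, or otherwise the one with the largest ratio, and the 3 genes nearest in pattern to CCL5, CXCL10, CXCL2 and CXCL3. Further genes were named after their values were seen. The alternatives were median centring, quantile normalization, other filters, an offset of 84.8, the brightest probe set and limits of 1.3 and 2 times.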

Additional observations from a re-analysis of the deposited data

Results flagged for a closer look

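At 5 genes past the filter the WDR5 siRNAs lay on opposite sides of the control, a difference that was not tested because each siRNA has 1 array. The log2 difference of si-WDR5-2 minus si-WDR5-3 was 3.79 for CCL5, 3.11 for CXCL10, 1.31 for CXCL2, 1.04 for CXCL1 and 0.73 for CCL20. For CXCL10 the si-WDR5-3 side was 0.918 times the control, close to no difference.

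Among the 10 genes, CXCL11 and a probe set of 2 gene names were left out of the gene values and lay above the control. CXCL11, below the filter, was at 6.61 times the control with si-WDR5-2 as the median of 3 probe sets. The probe set that CXCL1 and CXCL2 share was at 1.28 times with si-WDR5-2 and at 0.687 times with si-WDR5-3.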

How the results depend on the processing

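All 159 recomputed ratios of the 8 genes kept their sign under the alternatives tried, and 9 crossed the limit of 1.5 times. The kept signs are little support, since many of these values had no room to change sign. An offset cannot reverse the ratio of a probe set, and the other filters changed the values of CXCL8 alone. Higher with si-WDR5-2 than with control siRNA was 1 gene in place of 2 with the filter at the 75th percentile, which removes CXCL10. It was 3 genes with no filter, with the filter at the 25th percentile or at a limit of 1.3 times. Lower were 2 in place of 1 at a limit of 1.3 times. Lower with si-WDR5-3 were 2 in place of 5 at a limit of 2 times and 7 at a limit of 1.3 times. They were 4 with no filter, with the filter at the 25th or 75th percentile, with the offset and with the brightest probe set. With si-WDR5-2 against si-WDR5-3, 4 genes in place of 7 were higher with the filter at the 75th percentile, 4 at a limit of 2 times and 5 with the offset. Lower was 0 in place of 1 with the offset or at a limit of 2 times. The median log2 ratio with si-WDR5-3 was -0.75 and became -0.47 with no filter and with the filter at the 25th percentile, -0.88 with the filter at the 75th percentile, -0.60 with the offset and -0.61 with the brightest probe set. That of si-WDR5-2 against si-WDR5-3 was 0.98 and became 0.80 with the offset and 1.13 with the brightest probe set. With si-WDR5-3 against control siRNA, CCL5 was at 0.954 times for its brightest probe set, CXCL1 at 0.683 times with the offset and CXCL8 at 0.724 times without the filter or with it at the 25th percentile. With si-WDR5-2 against si-WDR5-3, CXCL8 was at 1.19 times under those filters and 1.47 times with the offset, CCL20 at 1.42 times and CCL2 at 0.667 times with the offset. No paired analysis was possible because each group holds 1 array. CXCL11, IL6 and 2 probe sets of CXCL8 lay below the filter, and how far low intensity limits their ratios was not tested.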

Other observations

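Among the listed genes below the filter, a few were named after their values were seen. CCL7, a monocyte chemokine gene that follows CCL2 on chromosome 17, had 184 with si-WDR5-2, 84.3 with si-WDR5-3 and 101 with control siRNA at 1 probe set. It was thus at 1.82 times the control with si-WDR5-2, where CCL2 was at 0.456 times, and both were below the control with si-WDR5-3, CCL7 at 0.835 times and CCL2 at 0.722 times. TLR3, an endosomal sensor of double-stranded RNA, had 410.2 with si-WDR5-2, 78.4 with si-WDR5-3 and 87.1 with control siRNA. PPARG, a factor of urothelial differentiation, had 162 with si-WDR5-2, 157 with si-WDR5-3 and 102 with control siRNA over 2 probe sets. Its ratios to control were 1.59 for si-WDR5-2 and 1.54 for si-WDR5-3, above the control on both arrays.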
